A study of Homo sapiens with 3 samples.

Results

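The genes of the unfolded protein response and of the ATF4 stress response were described in HCT116 cells after knockdown of SMARCA4, an ATPase of the SWI/SNF chromatin remodeling complex. The set was a list of 37 gene names, of 43299 gene names with transcript probes on the array, and every transcript probe that carried a member's name was taken, 43 probes in all. From textbook knowledge, 19 genes were placed in an ATF4 arm, 5 in an XBP1 arm, 10 in an ATF6 arm, and 3 were the sensors. Of these, 36 genes had a probe well above background on at least 1 array and 35 on all 3 arrays. VLDLR, a lipoprotein receptor gene induced through ATF4, had no probe well above background on any array and has no value here. NUPR1 was well above background in NC only, so that it passed through the group in which it was high.

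When unfolded proteins build up in the endoplasmic reticulum (ER), 3 membrane sensors respond. EIF2AK3 (PERK) phosphorylates the initiation factor eIF2alpha, which lowers general translation but favors that of ATF4, a transcription factor for genes of amino acid supply and stress feedback. ERN1 (IRE1) splices the mRNA of XBP1, and ATF6 is cut by proteases in the Golgi, and both products are transcription factors for ER chaperones, folding enzymes and ER-associated degradation. ATF4 is also raised by kinases that sense amino acid shortage, viral RNA or heme deficiency, so that its targets can move without the ER sensors.

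HCT116 is an established colorectal cancer cell line, and all 3 conditions were grown in McCOY's 5A medium with 10% FBS. SMARCA4-KD1 and SMARCA4-KD2 cells were transfected with small interfering RNA against SMARCA4 by lipofection, and NC cells with a scrambled control. Each condition had 1 array, so a difference between arrays could not be set against a spread between replicates. Time after transfection was not given in the sources used here, and the sample titles name SMARCA4 while the treatment field names PRMT1, from which the knockdown number was taken. Which siRNA was used for which knockdown was not given in the sources used here.

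The titles and the treatment field were therefore set against the arrays first. SMARCA4 had a processed signal, the spot brightness after background subtraction by the extraction software, of 14026 in NC against 3960.2 in SMARCA4-KD1 and 4129 in SMARCA4-KD2, which after scaling was 3.76-fold and 3.47-fold lower. PRMT1, an arginine methyltransferase, had 7683 in NC against 9801 and 10147, which was 1.20-fold and 1.29-fold higher. The epithelial markers EPCAM, KRT8, KRT18 and CDH1 were all well above background, with signals from 3573 to 102144 in NC. Of the markers of other cell types, 2 of 3 leukocyte, 2 of 3 endothelial and 1 of 4 fibroblast genes were well above background on any array, with NC signals from 3.74 to 348, the highest for COL1A1, while CD3E, PECAM1, COL1A2, COL3A1 and DCN were at or below 9.57. The arrays were similar in brightness, with a 75th percentile of 237, 228 and 223 and between 45.7% and 47.3% of probes well above background, and no spot was saturated. The 8 RNA spike-ins, scaled in the same way, were lower by 0.30 ± 0.09 (SD over spike-ins) on the log2 scale in SMARCA4-KD1 and 0.32 ± 0.10 in SMARCA4-KD2 than in NC. Both knockdown arrays were on 1 slide and NC on another, so that slide and knockdown cannot be told apart for any difference from NC.

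The transcription factors of the arms are known to read different DNA letters, and promoter stretches are shown for that reason. RefSeq promoter windows (GRCh38.p14, 250 bases before to 50 after a listed start) were at hand for 33 members, in 47 of 35116 windows. Both strands were searched for 4 response elements. The ER stress response element (ERSE), read by ATF6 and by XBP1 with NF-Y, was taken as CCAAT and CCACG separated by 9 bases. ERSE-II was taken as ATTGG and CCACG separated by 1 base. The element UPRE (TGACGTGG) is read by XBP1 and ATF6, and CARE (TGATGNAA) is the composite site of C/EBP and ATF factors read by ATF4. The stretches below, on the gene's strand, show 1 or more matches of ERSE, ERSE-II and CARE, with the match in capitals, where some matches lie on the opposite strand and so read in reverse complement.
HSPA5, ERSE, chr9:125241370-125241429, minus strand: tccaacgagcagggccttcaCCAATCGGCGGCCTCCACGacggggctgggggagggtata
XBP1, ERSE, chr22:28800582-28800641, minus strand: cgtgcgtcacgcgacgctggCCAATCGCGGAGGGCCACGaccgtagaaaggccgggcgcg
HSP90B1, ERSE, chr12:103930196-103930255, plus strand: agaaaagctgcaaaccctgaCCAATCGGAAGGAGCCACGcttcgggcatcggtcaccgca
CALR, ERSE, chr19:12938364-12938423, plus strand: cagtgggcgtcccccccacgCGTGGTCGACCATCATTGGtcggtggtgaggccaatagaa
HERPUD1, ERSE-II, chr16:56932005-56932064, plus strand: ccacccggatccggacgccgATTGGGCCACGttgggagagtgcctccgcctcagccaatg
SDF2L1, ERSE-II, chr22:21642094-21642153, plus strand: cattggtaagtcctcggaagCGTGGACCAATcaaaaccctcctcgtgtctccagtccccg
ASNS, CARE, chr7:97872437-97872496, minus strand: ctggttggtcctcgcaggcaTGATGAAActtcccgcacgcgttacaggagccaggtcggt
CHAC1, CARE, chr15:40953242-40953301, plus strand: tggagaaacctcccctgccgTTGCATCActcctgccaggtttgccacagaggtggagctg

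Counted from the listed start, the capitals began at position -66 in HSPA5, -52 in XBP1, -225 in CALR and -68 in ASNS. An ERSE was found in 7 of the 33 members (CALR, CANX, CRELD2, HSP90B1, HSPA5, PDIA6 and XBP1) and in 0.0769% of all windows. An ERSE-II was found in HERPUD1, HYOU1 and SDF2L1, and in 0.0541% of all windows. The only UPRE was in HYOU1, where it overlapped one of its 2 matches of ERSE-II, against 0.729% of all windows. CARE was found in ASNS, CHAC1, HERPUD1 and SLC3A2, against 3.62% of all windows, and in SLC3A2 it lay 37 bases after the start. Members were counted by gene over all of their windows, of which 10 genes had several, so their counts and the shares of all windows are not like for like. All 10 members with an ERSE or ERSE-II belonged to the XBP1 or ATF6 arm, and 3 of the 4 with CARE to the ATF4 arm. The arms were placed from textbook knowledge of the same factors that read these elements, so this match is no independent result. Most genes of the ATF4 arm that had a window held no CARE. A match of letters is a description and not a site of binding.

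Levels of all measured members are given on the log2 scale relative to each array's 75th percentile in the plot by arm. Each gene was read from its brightest probe, and since probes differ in brightness, arrays can be compared within a gene but genes cannot be ranked.

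**Figure D1:**
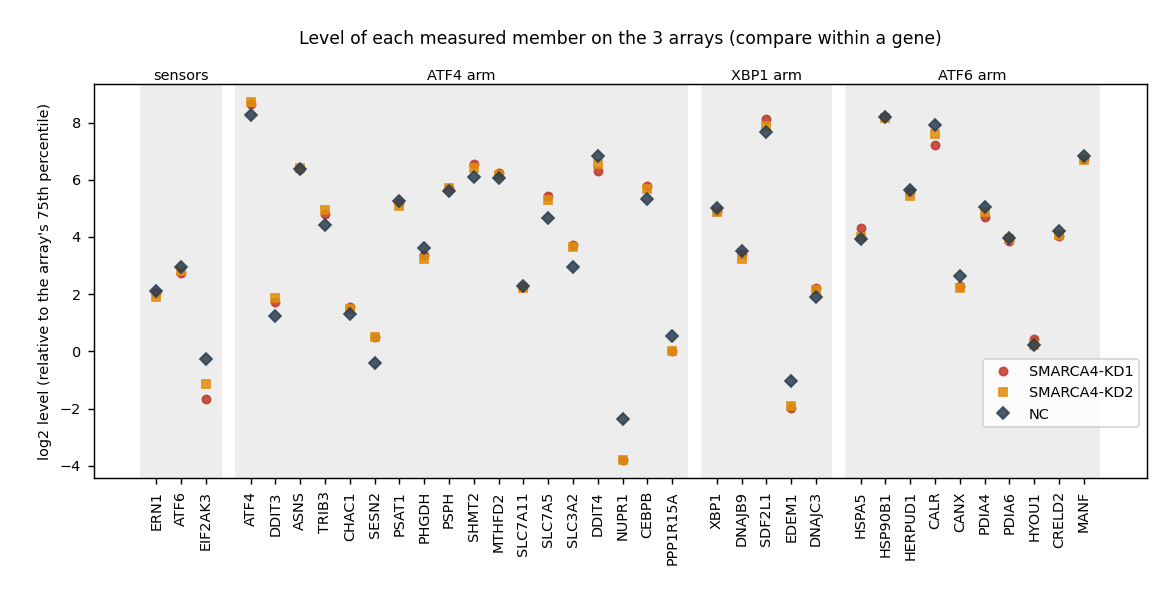
Level of each of the 36 measured members in SMARCA4-KD1, SMARCA4-KD2 and NC (log2 signal relative to the array's 75th percentile, 1 array per condition), grouped by arm. For most members the 3 arrays lie close together, and NUPR1, EDEM1, EIF2AK3 and SESN2 show the widest gaps to NC, where the knockdown points of NUPR1 are at the lowest level well above background.

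Most members were close to NC in both knockdowns. Where 3 signals stand in a row, they are those of SMARCA4-KD1, SMARCA4-KD2 and NC, before scaling, and pairs of values are those of SMARCA4-KD1 and SMARCA4-KD2. The 1.5-fold threshold of the study is, with 1 array per condition, a threshold of size and no test. By the brightest probe of each gene, 29 of 36 members lay within 1.5-fold of NC in each knockdown. CANX was counted among them, but its dimmer probe was past the threshold (0.75 and 0.65 on the log2 scale). In SMARCA4-KD1, 3 members were at least 1.5-fold higher (SESN2, SLC7A5 and SLC3A2), or 8.33% against 11.2% of all 22620 genes, and 4 were lower (NUPR1, EDEM1, CALR and EIF2AK3), or 11.1% against 12.3% of all genes. In SMARCA4-KD2, 4 members were higher (the same 3 and DDIT3), or 11.1% against 10.1% of all genes, and 3 were lower (NUPR1, EDEM1 and EIF2AK3), or 8.33% against 9.77%. All 4 shares were near those of all genes and are no result about the members. Without NUPR1, which had to be lower once it passed, the lower members numbered 3 and 2. Both knockdowns were set against the same NC array, so the values of a gene in the 2 comparisons are not independent.

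The median log2 fold change in SMARCA4-KD1 and SMARCA4-KD2 was 0.21 and 0.14 over the 18 measured genes of the ATF4 arm, -0.08 and -0.12 over the 5 of the XBP1 arm, -0.09 and -0.13 over the 10 of the ATF6 arm, and -0.19 and -0.22 over the sensors, beside -0.0038 and 0.02 over all genes. In the ATF4 arm 11 of 18 genes were above 0 in SMARCA4-KD1 and 12 of 18 were in SMARCA4-KD2. In the ATF6 arm 2 of 10 were in each, with CANX, whose probes disagreed, counted by its brighter probe. Of all 22620 genes, 11238 and 11778 were above 0. When arrays were scaled to the spike-ins instead, all genes moved up by their shift, the median of all genes was 0.30 and 0.34, and the medians of the XBP1 arm, ATF6 arm and sensors turned positive. Relative to the median of all genes, the ATF4 arm lay at 0.21 and 0.12, the XBP1 arm at -0.08 and -0.14, the ATF6 arm at -0.09 and -0.15 and the sensors at -0.19 and -0.24 under either scaling.

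**Figure D2:**
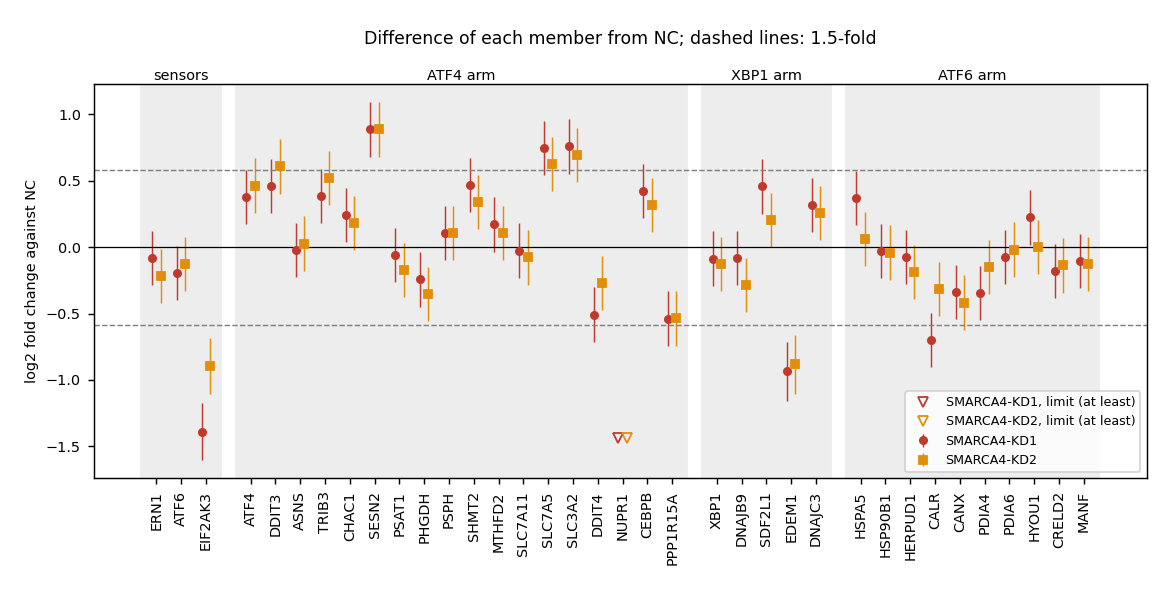
Log2 fold change against NC of each measured member in SMARCA4-KD1 (circles) and SMARCA4-KD2 (squares), by arm. Bars are the error propagated from the extraction software's error of each spot, which covers no replicate spread, dashed lines mark 1.5-fold, and open triangles mark limits. SESN2, SLC7A5 and SLC3A2 lie above the upper line and EDEM1, EIF2AK3 and NUPR1 below the lower line in both knockdowns.

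Both knockdown arrays together could be tested against NC with limma, in which the spread rests on the difference between the knockdown arrays (1 residual degree of freedom) and NC is assumed to vary like them. As the knockdown arrays were on 1 slide and NC on another, that spread holds no difference between slides. With Benjamini-Hochberg adjustment 0 of 22620 genes (0%) and so no member passed an adjusted p of 0.05. The smallest adjusted p was 0.107, which SESN2, SLC7A5 and SLC3A2 reached. NUPR1 had the same adjusted p, but both of its knockdown values were limits, so their gap of 0.0022 is no measured spread. Since its direction was also fixed once it passed through NC, the test says nothing about NUPR1. At an unadjusted p under 0.05, 14 of 36 members, NUPR1 among them, stood against 6876 genes (30.4%). The count differed between settings, and the cause was not tested. Over the 19504 genes whose probe was well above background on all arrays, 12 of 35 members passed against 26.5% of all genes, namely SLC3A2, SLC7A5, SESN2, ATF4, TRIB3, DDIT3, SHMT2 and CEBPB higher, and EIF2AK3, EDEM1, PPP1R15A and CALR lower. With quantile normalization 4 of 36 members passed against 12% of all genes, and with normexp background correction 10 of 36 against 15.9%. No member is called changed here.

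The sensors were led by EIF2AK3 (PERK), the kinase whose activity raises ATF4 translation. Its signal stood at 186 in NC against 75.4 in SMARCA4-KD1 and 103 in SMARCA4-KD2, at a probe at chr2:88856582-88856641 (hg19), and it was 2.62-fold and 1.86-fold lower in the knockdowns (log2 -1.39 ± 0.22 and -0.89 ± 0.21, software error). NC was the highest array, and the knockdown arrays differed from each other by 0.50 on the log2 scale, the widest gap of any member. With spike-in scaling, EIF2AK3 was within 1.5-fold in SMARCA4-KD2 (-0.58). The limma result for EIF2AK3 depended on the filter. Its spread holds no difference between slides, so it is not read as a result for the gene.

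ERN1 (IRE1), the kinase and endoribonuclease that splices XBP1 mRNA, had signals of 964, 845 and 961 in SMARCA4-KD1, SMARCA4-KD2 and NC, a log2 fold change of -0.08 and -0.22. They come from a probe to an Ensembl transcript at chr17:62116510-62116569 (hg19), while the probe to the RefSeq transcript, at chr17:62121087-62121146, was not well above background on any array (8.09, 14.3 and 16.8). ATF6, the membrane-bound transcription factor, had 1594, 1613 and 1718, or -0.19 and -0.12. By the brighter probe of ERN1 and by that of ATF6, the 3 arrays lay within about the software error of 0.20 of each other. Each value is the signal of a 60-base probe, which measures mRNA at that stretch and not splicing of XBP1, cleavage of ATF6 or phosphorylation of EIF2AK3.

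Among the transcription factors of the ATF4 arm, ATF4 itself had a signal of 68604 in NC against 94813 and 96795 in SMARCA4-KD1 and SMARCA4-KD2, and was 1.30-fold and 1.38-fold higher after scaling (log2 0.38 and 0.46, ± 0.20). NC was the lowest of the 3 arrays, and the knockdown arrays differed by 0.08. ATF4 is regulated to a large part in translation, which arrays do not measure.

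DDIT3 (CHOP), a transcription factor linked to cell death under prolonged stress, had signals of 776, 827 and 530.2 and was 1.38-fold and 1.52-fold higher (0.46 and 0.61), so that it crossed the threshold in SMARCA4-KD2 only, and there it was within it with quantile normalization (0.58), the percentile over detected probes (0.56) and normexp (0.55). The difference between both knockdown arrays, 0.14, was smaller than its software error. TRIB3, a pseudokinase induced by ATF4 and DDIT3 that acts as feedback on them, had 6573, 6965 and 4745, or 0.38 and 0.52, and was just outside the threshold in SMARCA4-KD2. CEBPB, a partner of ATF4 on CARE sites, had 12871, 11548 and 9051, or 0.42 and 0.32. These 4 genes were brightest in a knockdown and dimmest in NC.

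PPP1R15A (GADD34), the phosphatase subunit that reverses phosphorylation of eIF2alpha, was lower, with 238, 230.1 and 326. Its log2 fold change was -0.54 in both knockdowns, just short of 1.5-fold. With the percentile over detected probes it was past 1.5-fold in SMARCA4-KD1 (-0.59). NUPR1, a small stress-induced chromatin protein, had 14.3, 13.6 and 43.0 and was well above background in NC only, so the knockdowns were lower by at least 2.70-fold and at least 2.71-fold. It is the dimmest measured member, and with normexp background correction its difference was -0.47 and -0.46, within 1.5-fold. Hence the factors and feedback genes did not all lie on the same side of NC.

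Of the amino acid transporters, SLC7A5 and SLC3A2 were past 1.5-fold in both knockdowns. SLC7A5 (LAT1), the transporter of large neutral amino acids such as leucine, had a signal of 5679 in NC against 10097 and 8967 in SMARCA4-KD1 and SMARCA4-KD2, and was 1.68-fold and 1.54-fold higher (0.74 and 0.63), from a probe at chr16:87863907-87863966 (hg19). SLC3A2 (CD98 heavy chain), the partner that brings LAT1 to the cell surface, had 3116, 2867 and 1735 and was 1.69-fold and 1.62-fold higher (0.76 and 0.69), from a probe at chr11:62652689-62652748 (hg19). In both genes each knockdown array was above NC by over 3 times the software error, which covers no spread between replicates or slides. The knockdown arrays differed by 0.12 or less. In SMARCA4-KD2, SLC7A5 was within 1.5-fold with quantile normalization (0.52), with the percentile over detected probes (0.58) and with normexp (0.56).

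SLC7A11 (xCT), the cystine transporter that also pairs with SLC3A2, had 1129, 1049 and 1083, or -0.02 and -0.08, and so lay with NC. CHAC1, which degrades glutathione, had 691, 638 and 550.1, or 0.24 and 0.18, and its second and dimmer probe lay at -0.12 and -0.49. The limma result for SLC7A5 and SLC3A2 depended on the filter. Its spread holds no difference between slides, so it is not read as a result for either gene.

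SESN2, a leucine-binding inhibitor of mTORC1 that is also a p53 target, was the member furthest above NC. NC had a signal of 169.8, SMARCA4-KD1 of 334 and SMARCA4-KD2 of 322 (chr1:28608194-28608253, hg19), a 1.85-fold difference in both (0.89 ± 0.21). Both knockdown arrays were alike and NC was low, and the difference ranged from 0.75 to 1.21 over all processing settings. DDIT4 (REDD1), another inhibitor of mTORC1, lay on the other side, 0.51 lower in SMARCA4-KD1 and 0.27 lower in SMARCA4-KD2. With quantile normalization DDIT4 was past 1.5-fold in SMARCA4-KD1 (-0.64).

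In the main processing, described below, the 6 genes of serine, glycine, one-carbon and asparagine synthesis were within 1.5-fold of NC in both knockdowns. SHMT2, the mitochondrial serine hydroxymethyltransferase, had 22163, 19575 and 15094, or 0.47 and 0.34, the highest of them. In SMARCA4-KD1, SHMT2 was past 1.5-fold with spike-in scaling (0.77) and, by little, with normexp (0.59). In SMARCA4-KD2 it was past 1.5-fold with spike-in scaling (0.66). PHGDH, the first enzyme of serine synthesis, had 2421, 2163 and 2700.03, or -0.24 and -0.35, the lowest. Between them lay MTHFD2 of mitochondrial folate metabolism (0.17 and 0.11), PSPH (0.10 and 0.11) and PSAT1 (-0.06 and -0.17), the other 2 enzymes of serine synthesis, and ASNS, the asparagine synthetase often used as a readout of ATF4 (-0.02 and 0.03). For ASNS, whose CARE is printed above, the signals were 19563, 19475 and 18681, and the arrays were alike.

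In the XBP1 arm, EDEM1, which directs misfolded glycoproteins to degradation, had a signal of 108 in NC against 60.2 in each knockdown, and was 1.91-fold and 1.84-fold lower (-0.94 ± 0.23 and -0.88 ± 0.22), from a probe at chr3:5260840-5260899 (hg19). Both knockdown arrays lay below NC and were alike. The probe is dim, and with normexp background correction the difference was -0.54 and -0.52, within 1.5-fold, as it was with spike-in scaling in SMARCA4-KD2 (-0.57). XBP1 had 7163, 6721 and 7160.3, or -0.09 and -0.12 after scaling, with all arrays close to NC.

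Of the other targets of XBP1, SDF2L1, a cofactor of ER chaperones, was at 0.46 and 0.20, DNAJC3, a cochaperone that also inhibits eIF2 kinases, at 0.32 and 0.26, and DNAJB9 (ERdj4), a cochaperone of HSPA5, at -0.08 and -0.29. SDF2L1 was brightest in SMARCA4-KD1, with 66517, 53720 and 45629. In the main processing none of the 3 reached 1.5-fold, and their signs differed.

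In the ATF6 arm, HSPA5 (BiP), the major ER chaperone that holds the sensors inactive, had a signal of 3426 in NC against 4694 in SMARCA4-KD1 and 3659 in SMARCA4-KD2, or 0.37 and 0.06. SMARCA4-KD1 was the high array, and SMARCA4-KD2 was close to NC. CALR (calreticulin), a lectin chaperone for glycoproteins, had 35059, 43978 and 53604 and was lower by 1.62-fold in SMARCA4-KD1 but 1.25-fold in SMARCA4-KD2 (-0.70 and -0.32, ± 0.20), from a probe at chr19:13055230-13055289 (hg19). Its 3 arrays were spread out, with SMARCA4-KD2 between the others. With spike-in scaling CALR was within 1.5-fold in SMARCA4-KD1 (-0.39). For CALR the limma result likewise depended on the filter and is not read as a result for the gene.

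CANX (calnexin), the membrane-bound counterpart of CALR, had 2 probes that disagreed. The brighter, at chr5:179137006-179137065 (hg19), had signals of 1167, 1066 and 1391, or -0.34 and -0.42, and the dimmer, at chr5:179158058-179158117, had 552, 498 and 310.2, or 0.75 and 0.65. No direction can therefore be given for CANX, and the mean over its probes was 0.20 and 0.12. HSP90B1 (GRP94), for which a second probe was also well above background, lay at -0.03 and -0.04 by the brighter and at -0.15 and -0.15 by the dimmer.

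The remaining 6 genes of the ATF6 arm were within 1.5-fold. The protein disulfide isomerases PDIA4 (-0.35 and -0.15) and PDIA6 (-0.08 and -0.02) and HYOU1, an ER chaperone with exchange factor activity for HSPA5 (0.22 and 0.0025), were closer to NC in SMARCA4-KD2 than in SMARCA4-KD1. HERPUD1, a component of ER-associated degradation (-0.07 and -0.19), and the secreted ER stress proteins CRELD2 (-0.18 and -0.14) and MANF (-0.10 and -0.12) were below NC by no more than the software error. Over the 10 members with an ERSE or ERSE-II in their promoter the median was -0.07 and -0.08. Over the 22 measured members whose windows held neither, it was -0.04 and -0.05. By the brightest probes, CALR was lower in SMARCA4-KD1 and no other of the 10 was past 1.5-fold. The dimmer probe of CANX, however, was past it on the higher side in both knockdowns (0.75 and 0.65).

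Differences between the knockdown arrays do not involve NC or its slide. Of 36 members, 0 were at least 1.5-fold apart, where 3.05% of all genes were higher and 3.55% lower in SMARCA4-KD1. With 36 genes and shares this small, the 0 is no result about the members. Within 0.20 on the log2 scale were 28, with NUPR1 among them only because both of its values were limits. The share of all genes within 0.20 was not counted. The single-gene SD between these arrays was 0.11 over the members and 0.30 over all genes. Of the members 35 were well above background on all arrays, but of all 22620 genes 19504 were, so these SDs are not like for like. After EIF2AK3, the widest gaps were those of CALR (-0.38), HSPA5 (0.31) and SDF2L1 (0.25), given as SMARCA4-KD1 minus SMARCA4-KD2.

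The probes of 4 members were printed 10 times on each array, which gives the spread between spots of 1 hybridization. For CEBPB, log2 levels of the spots ran from 5.74 to 5.79 in SMARCA4-KD1, 5.63 to 5.69 in SMARCA4-KD2 and 5.30 to 5.37 in NC. Those of DDIT4 ran from 6.28 to 6.34, 6.51 to 6.59 and 6.79 to 6.87. In both genes the 3 arrays did not overlap, and the order of arrays was opposite. MTHFD2 spots ran from 6.15 to 6.28, 6.11 to 6.22 and 5.95 to 6.13, and those of XBP1 from 4.85 to 4.95, 4.83 to 4.92 and 4.95 to 5.04. The SD between spots was 0.02 to 0.06, but spots of 1 array share its RNA, labeling and scaling and are no replicates.

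Other genes of these pathways, 88 in 4 lists written from textbook knowledge, were counted in the same way. Over all 22620 genes, 11.2% were at least 1.5-fold higher and 12.3% lower in SMARCA4-KD1, and 10.1% and 9.77% in SMARCA4-KD2. Of 33 measured other genes of the ATF4 response, 3 (9.09%) were at least 1.5-fold higher and 2 (6.06%) lower in SMARCA4-KD1. In SMARCA4-KD2, 5 (15.2%) were higher and 2 (6.06%) lower, and the median in both knockdowns was 0.21 and 0.30. Among the 12 genes of eIF2, its kinases and its exchange factor eIF2B, 2 (16.7%) were higher and 2 (16.7%) lower in SMARCA4-KD1. In SMARCA4-KD2, 2 (16.7%) were higher and 1 (8.33%) lower (median in both knockdowns 0.01 and 0.02). The 35 other genes of ER folding, translocation and degradation had 3 (8.57%) higher and 6 (17.1%) lower, and 4 (11.4%) higher and 3 (8.57%) lower (median -0.09 and -0.0095). The 7 other sensors and proteases had 2 (28.6%) higher and 1 (14.3%) lower, and 1 (14.3%) higher and 2 (28.6%) lower (median 0.20 and 0.0013). With so few genes per list, no count is read as a result about a list.

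Of these genes, 8 were at least 2-fold from NC in either knockdown, each by a single probe well above background. Over all genes, 3.41% were at least 2-fold higher and 3.64% lower in SMARCA4-KD1, and 2.83% and 2.6% in SMARCA4-KD2. The share of all genes past 2-fold in either knockdown was not counted, so the 8 are no result about these pathways. EIF2S1, which encodes eIF2alpha, the substrate of EIF2AK3, had a signal of 1851 in NC against 695 in SMARCA4-KD1 and 549 in SMARCA4-KD2, or -1.50 and -1.79. EIF2B4, a subunit of eIF2B, had 2881, 2308 and 1344, or 1.01 and 0.75. NC was thus the highest array for the former and the lowest for the latter.

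SEC61B, a subunit of the channel through which proteins enter the ER, had 7729, 8946 and 22687, or -1.64 and -1.37, while SIL1, an exchange factor for HSPA5, had 499, 571 and 225, or 1.07 and 1.31. JDP2, a repressor that binds ATF and AP-1 sites (-1.60 and -1.39), FAM129A, an ATF4-induced stress gene (-1.02 and -0.60), and CREBRF, a negative regulator of the unfolded protein response (-1.32 and -0.81), were lower in both knockdowns. ERN2, the epithelial paralog of ERN1, had 128, 16.1 and 26.8 and was at 2.17 in SMARCA4-KD1 but at -0.75 in SMARCA4-KD2, where it was not well above background and the value is a limit.

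**Figure D3:**
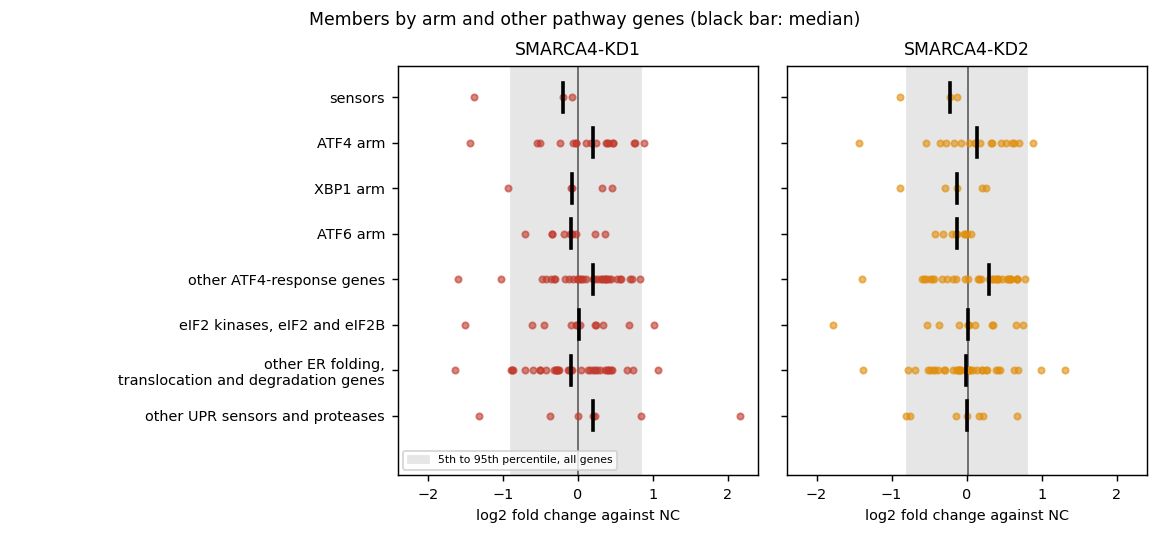
Log2 fold change against NC of each gene (points) by arm and by list of other pathway genes, with the median as a black bar, a line at the median of all genes and a grey band from the 5th to the 95th percentile of all 22620 genes. Most genes lie inside the band, and the medians of the ATF4 arm (0.21 and 0.14) and of the other ATF4-response genes (0.21 and 0.30) lie to the right of the line, as do those of the other sensors and proteases in SMARCA4-KD1 (0.20) and, by little, of the eIF2 genes (0.01 and 0.02).

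The choice of scaling moved the medians more than any other step. The ATF4 arm had the highest median of the 4 groups and stayed above 0 under every setting tried, from 0.13 with quantile normalization to 0.51 with spike-in scaling in SMARCA4-KD1, and from 0.08 to 0.46 with the same settings in SMARCA4-KD2. The other groups were below 0 under every setting except spike-in scaling. Under that scaling, which moves every gene up alike, 11 members (30.6%) were at least 1.5-fold higher in SMARCA4-KD1 against 26.3% of all genes, and 8 (22.2%) were in SMARCA4-KD2 against 27.6% of all genes, so the larger counts say nothing of the members.

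**Figure D4:**
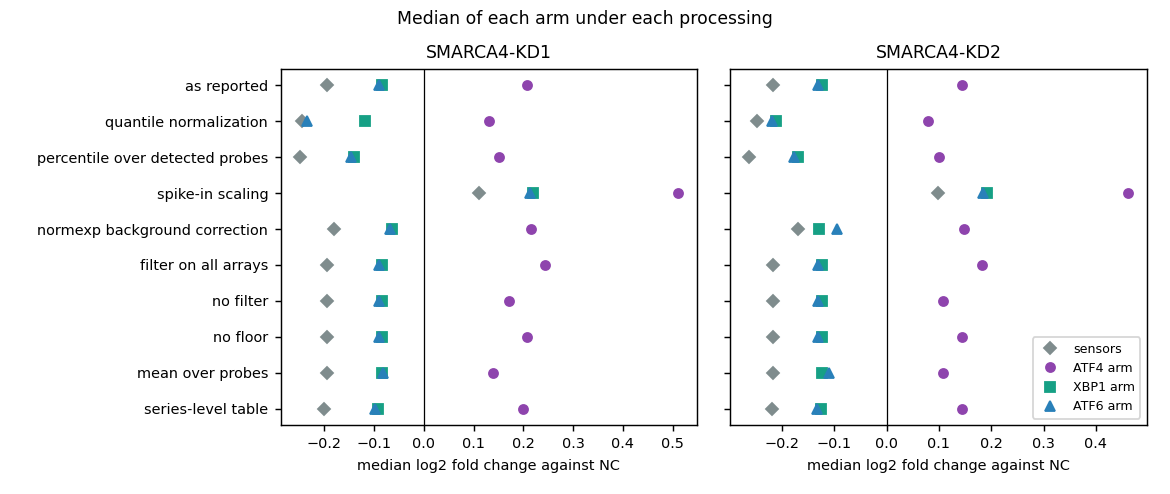
Median log2 fold change against NC of each group of members under each processing setting, in SMARCA4-KD1 (left) and SMARCA4-KD2 (right). Spike-in scaling moves all 4 medians to the right of 0, while under the other settings only the ATF4 arm lies there.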

How the data were processed

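The authors deposited, for each of 3 arrays of 1 colour (Cy3), the spot intensity from Agilent Feature Extraction 10.7.1.1, per the submitters' processing notes, with background subtracted and no scaling between arrays. They also deposited a series-level table of the same intensity values, and other columns of 0 or 1 flags. Here control spots and outlier spots were left out, repeated spots averaged on log2, and each array's 75th percentile of log2 signal subtracted. Values not well above background were set to at least the lowest one well above it, so folds against them are limits. Genes with a probe well above background on 1 or more arrays were kept (22620), by their brightest probe. Probe positions are hg19 as in the files, and promoters are RefSeq's on GRCh38.p14, so no exon or intron is given for probes. limma 3.58.1 (R 4.3.3) was tested on simulated data. Other steps used Python 3.11.15, numpy 2.4.6, pandas 2.3.3 and matplotlib 3.10.9. Members and lists were chosen with earlier results of these data known. All measured members were named, and of other pathway genes those at least 2-fold from NC in either knockdown. The number of arrays limits the precision. The alternatives were scaling, background, filter, floor, probe choice, the deposited table and a 2-fold threshold. The siRNA sequences are not reported here.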

Additional observations from a re-analysis of the deposited data

How the results depend on the processing

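Single arrays, with NC on a slide of its own, set the limits here, and dim probes (NUPR1, EDEM1, EIF2AK3) depend most on background. No paired analysis was possible because each condition had 1 array. No member past 1.5-fold changed sign under any setting run. Of 72 values of single members, 36 moved by more than the single-gene SD of 0.30 with spike-in scaling. These were the values of SMARCA4-KD2, whose shift of 0.32 was just above that SD. With normexp 5 moved by more, and with the mean over probes 3. With quantile normalization, the ATF4 arm median in SMARCA4-KD1 was 0.13, that of the ATF6 arm -0.24, and that of the ATF4 arm in SMARCA4-KD2 0.08. In SMARCA4-KD2, 2 members were then higher (5.56%, against 9.24% of all genes), as with the percentile over detected probes (2, or 5.56% against 8.67%). In SMARCA4-KD1, 5 members were lower with quantile normalization (13.9% against 12.8%) and 5 with the percentile over detected probes (13.9% against 14%). With spike-in scaling, 11 members were higher in SMARCA4-KD1 (30.6%, against 26.3% of all genes), and 8 higher (22.2% against 27.6%) and 1 lower (2.78% against 3.55%) in SMARCA4-KD2, and the medians of the ATF4, XBP1 and ATF6 arms and sensors were 0.51, 0.22, 0.21 and 0.11 in SMARCA4-KD1 and 0.46, 0.19, 0.18 and 0.10 in SMARCA4-KD2. This scaling adds the same spike-in difference to every gene of an array. With normexp, 2 members were lower (5.56%, against 5.99% of all genes) and 4 higher (11.1% against 6.72%) in SMARCA4-KD1. In SMARCA4-KD2, 1 was lower (2.78% against 4.48%) and 2 higher (5.56% against 5.47%). At 2-fold, a stricter threshold, 2 were lower (5.56%, against 3.64% of all genes) and 0 higher (0% against 3.41%) in SMARCA4-KD1. In SMARCA4-KD2, 1 was lower (2.78% against 2.6%) and 0 higher (0% against 2.83%). limma called 0 genes with the main setting, without the trend and by Student's t test (6876, 6422 and 3224 at an unadjusted p under 0.05), but 5176 genes and 12 members when filtered on all arrays, 2705 and 4 with quantile normalization, and 3601 and 10 with normexp, and the cause was not tested. The mean over probes moved CANX to 0.20 and 0.12, and CHAC1 in SMARCA4-KD2 to -0.15. Without a filter the median of all genes was -0.15 in both knockdowns.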
